A study of Mus musculus with 2 samples.

Results

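Of the 12014 EGR1 peaks in the deposited list, 11938 lay on assembled mouse chromosomes, and 1241 of these (10.4%) were distal and intergenic. These were the peaks whose centre, the mean of start and end, was more than 10 kb from every transcription start site (TSS) in GENCODE release M21 and outside every protein-coding gene body. No measured value entered this choice. The peaks came from ChIP-seq, in which DNA bound by a protein is pulled down with an antibody and sequenced, here on frontal cortices of male 129SvEv/C57BL/6N F1 hybrid mice aged 6 weeks with no treatment named. Frontal cortices of several mice were pooled for each of the duplicate ChIP experiments, and 1 list of peaks reproducible between the duplicates was deposited, so the values below carry no spread between replicates. Input DNA from the same tissue was the other sample of the series, and no file of it was analysed here. Each peak has a position on mm10 and an irreproducible discovery rate (IDR), which is read like a q-value and is low where a peak ranked high in both experiments. The list has no read counts, so the depth behind each peak is unknown.

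EGR1 is a zinc-finger transcription factor whose gene is switched on within minutes of synaptic activity, which makes it an immediate early gene. Its fingers bind a 9-base element rich in G and C that often lies in CpG-rich promoters. Sites far from any promoter can act as enhancers, which raise the transcription of genes at a distance, and a cortical neuron holds many of them that are opened by activity.

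The sequences of 5 distal intergenic peaks are printed first, since they show the kinds of sites found in the class. They were read from the plus strand of GRCm38.p6, the build that mm10 names, and are written 5′ to 3′ in lower case. Capitals mark the exact EGR1 element, taken here as GCGTGGGCG or GCGGGGGCG on either strand. Where a peak had none, they mark that element with 1 base changed. The 7-base word GTGGGTG, which was picked after the values were seen, is in capitals in every peak on either strand. The peak 25.6 kb upstream of Shc3, an adaptor of neuronal receptor kinases, had the lowest IDR of all 1241 (4.84e-09). It runs over chr13:51594910-51595206 and holds 8 copies of GTGGGTG, 4 sites with 1 base changed and no exact element.
Shc3 peak: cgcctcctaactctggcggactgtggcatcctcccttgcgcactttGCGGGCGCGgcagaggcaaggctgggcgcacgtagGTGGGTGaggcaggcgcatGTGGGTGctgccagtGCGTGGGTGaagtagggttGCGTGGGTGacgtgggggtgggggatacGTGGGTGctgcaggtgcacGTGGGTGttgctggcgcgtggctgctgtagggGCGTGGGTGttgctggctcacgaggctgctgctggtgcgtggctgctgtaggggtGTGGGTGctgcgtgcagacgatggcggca
Fos, itself an immediate early gene and a subunit of the AP-1 factor, had no EGR1 peak within 2 kb of its own TSSs but had 3 distal ones. The peak 11.3 kb downstream, at chr12:85486113-85486325, ranked number 7 (IDR 3.41e-08) and holds 1 exact element on the minus strand.
Fos peak at 11.3 kb: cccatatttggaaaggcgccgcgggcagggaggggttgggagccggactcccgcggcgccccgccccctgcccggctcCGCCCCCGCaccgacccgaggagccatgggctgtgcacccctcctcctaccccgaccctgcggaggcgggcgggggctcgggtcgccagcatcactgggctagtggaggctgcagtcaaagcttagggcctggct
The next one, at chr12:85486901-85487150, lies 12.1 kb downstream, has an IDR of 0.000212 and holds no exact element, with 2 sites that differ from it by 1 base and 1 copy of GTGGGTG.
Fos peak at 12.1 kb: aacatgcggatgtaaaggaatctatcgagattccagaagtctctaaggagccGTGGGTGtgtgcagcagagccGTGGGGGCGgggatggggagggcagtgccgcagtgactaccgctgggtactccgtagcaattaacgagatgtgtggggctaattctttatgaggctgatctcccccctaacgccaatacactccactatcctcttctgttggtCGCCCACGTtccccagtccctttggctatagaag
The last pair shows peaks with GTGGGTG, here on the minus strand, and no match to the element even with 1 change. They were the ones of lowest IDR among the eligible peaks of this kind of at most 300 bp, at chr16:13197481-13197652 near Mrtfb (IDR 7.57e-08) and chr4:138555655-138555825 near Vwa5b1 (IDR 1.10e-07).
Mrtfb peak: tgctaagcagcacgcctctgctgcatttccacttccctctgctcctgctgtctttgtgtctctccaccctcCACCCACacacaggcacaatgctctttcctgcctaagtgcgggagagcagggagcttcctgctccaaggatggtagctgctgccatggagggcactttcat
Vwa5b1 peak: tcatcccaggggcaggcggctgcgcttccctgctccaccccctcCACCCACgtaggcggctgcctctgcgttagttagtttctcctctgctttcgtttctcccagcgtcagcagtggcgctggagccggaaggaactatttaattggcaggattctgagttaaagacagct

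Distal intergenic peaks thinned out steadily with distance from the nearest TSS. Sequence that meets the same position rule makes up 1120 Mb, or 42.3% of the known bases of the assembled chromosomes, and held 1.11 peaks per Mb (exact 95% Poisson interval 1.05 to 1.17). Protein-coding gene bodies at the same distance from any TSS held 2.27 per Mb (2.15 to 2.40), and all assembled sequence 4.51 per Mb (4.43 to 4.59). Between 10 and 20 kb from a TSS, 491 peaks gave 1.73 per Mb (1.58 to 1.89). The density was 1.19 per Mb at 20 to 50 kb with 479 peaks and 0.776 per Mb at 50 to 100 kb with 192 peaks. At 100 to 200 kb, 68 peaks gave 0.485 per Mb (0.376 to 0.614), and at 200 to 500 kb only 11 peaks were left, or 0.250 per Mb (0.125 to 0.447). The density in the nearest band was 7.06 times that beyond 200 kb (exact interval 3.91 to 14.2), and the intervals of the first 4 bands did not overlap. These intervals cover counting error only, and neighbouring peaks are not independent.

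**Figure D1:**
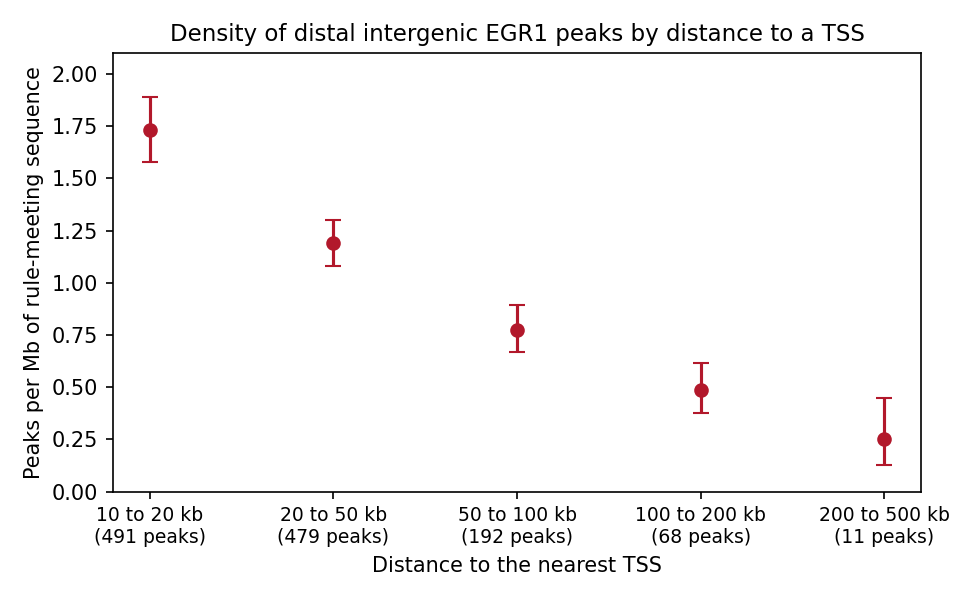
Peaks per Mb of sequence meeting the position rule (vertical axis) in 5 bands of distance to the nearest TSS (horizontal axis), with the number of peaks under each band and exact 95% Poisson intervals as bars. The points go down from 1.73 per Mb at 10 to 20 kb to 0.250 per Mb at 200 to 500 kb.

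The median distance to any TSS was 24.6 kb, with quartiles of 15.8 and 45.1 kb, and to a protein-coding TSS 53.5 kb. The nearest TSS belonged to a protein-coding gene for 435 peaks, to a lincRNA for 320 and to a processed pseudogene for 229. Relative to the nearest protein-coding TSS, 667 peaks lay upstream (53.7%, Wilson interval 51 to 56.5%) and 574 downstream. The peaks nearest to the limit were at 10007, 10021 and 10026 bp, with IDRs of 0.00785, 0.00844 and 0.000885, while the closest ones left out were at 9970, 9933 and 9929 bp, with IDRs of 1.81e-05, 0.00735 and 0.0125. The label holds for GENCODE, but 99 peaks (7.98%) lay in the body of a gene that is not protein-coding, and 94 (7.57%) were within 2 kb of a transcript start in RefSeq, against 61.1% of all peaks. Among chromosomes, chromosome 11 had the highest density, 2.31 per Mb (1.87 to 2.83), and chromosome X the lowest of those with any peak, 0.203 per Mb (0.120 to 0.321) from 18 peaks. Chromosome 3 was the lowest autosome with 0.699 per Mb (0.525 to 0.912). Males carry a single X, and its part in that density was not tested.

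The exact EGR1 element was present in 77 distal intergenic peaks (6.20%, Wilson interval 4.99 to 7.69%), against 16.6% of all peaks. In windows of the same width 5 kb to the left and to the right it was present at 1 peak each (0.0806%). The share was lower than in the other 10697 peaks, of which 17.9% held the element (odds ratio 0.304, 95% interval 0.240 to 0.385; adjusted p = 7.99e-30, Fisher's exact test, Benjamini-Hochberg over 14 comparisons of peak classes). Deep intronic peaks, the 1149 in introns of protein-coding genes and also over 10 kb from every TSS, held it in 5.31% (odds ratio 1.18, interval 0.835 to 1.67; adjusted p = 0.592, Fisher's exact test). The difference from them was not past the threshold, and its interval reaches from a lower share to one with 1.67 times the odds. Peaks within 2 kb of a TSS held it in 22.2% (21.3 to 23.2%), a value given without a test. Of the element's forms, GCGTGGGCG was in 32 and GCGGGGGCG in 45 distal intergenic peaks. Near a TSS the second form was far more frequent than the first, at 17.3% against 5.24% of peaks, while in distal intergenic peaks they stood at 3.63% (2.72 to 4.82%) and 2.58% (1.83 to 3.62%).

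With up to 1 base changed in the element, exact matches included, 588 distal intergenic peaks had a match (47.4%, 44.6 to 50.2%), against 1.77% of the left windows and 69.8% of all peaks. The share was 47.6% (44.7 to 50.5%) in deep intronic peaks and 81.6% in the peaks within 2 kb of a TSS. Positions are counted from 1 at the 5′ end of the element. The change found in the most distal intergenic peaks was C8T in GCGTGGGCG, which gives GCGTGGGTG. That word was in 87 of them (7.01%), 0 left and 1 right windows, 7.57% of the deep intronic peaks and 3.42% of the peaks within 2 kb of a TSS. The next were C8T in GCGGGGGCG with 55 peaks and C2A in GCGTGGGCG with 52 peaks. All 3 words were in more distal intergenic peaks than either exact form.

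The 7-base word with the largest excess of peaks over windows, as a difference in counts, was GTGGGTG. This word is the last 7 bases of the changed element and has no CpG. It was in 511 distal intergenic peaks (41.2%, 38.5 to 43.9%), against 25.5% of all peaks, 5.96% of the left and 6.45% of the right windows. The share was 43.9% (41.0 to 46.7%) in deep intronic peaks, 39.9% (37.7 to 42.1%) at 2 to 10 kb from a TSS and 16.4% (15.6 to 17.3%) within 2 kb. GTGGGCG, the same end of the unchanged element, was in 20.1% of the distal intergenic peaks and 0.725% of the left windows. For GCGTGGG the shares were 20.8% and 0.886%. Both of these words hold a CpG, and both had a larger ratio of peaks to windows than GTGGGTG. Since the words were chosen on these sequences, no test was made. Of the 793 sites of GTGGGTG, 61.4% lay outside soft-masked repeats, and 396 peaks (31.9%) kept at least 1 site when masked ones were left out. An exact element and GTGGGTG were found together in 11 peaks. Up to 1 change in the element or the 7-base word covered 935 peaks (75.3%), and 306 (24.7%) had neither.

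**Figure D2:**
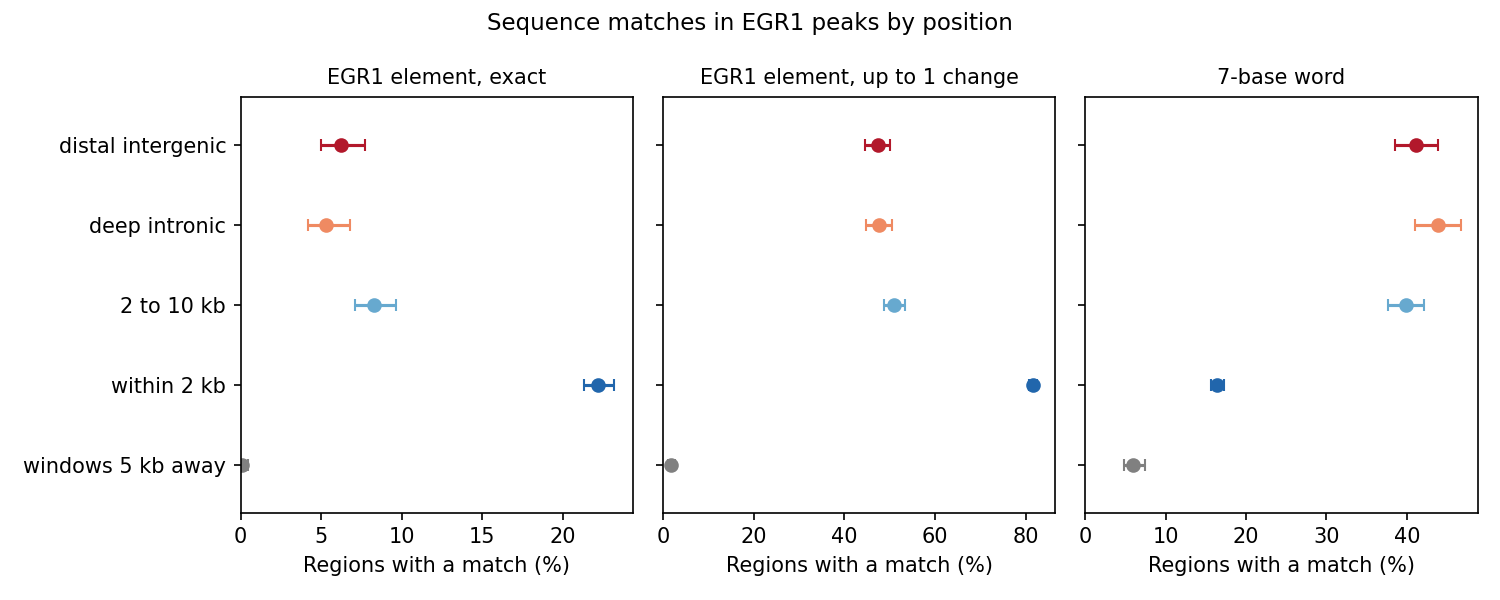
Share of regions with a match (horizontal axes, %) for the exact EGR1 element, the element with up to 1 change and the 7-base word described in the text, in 4 classes of peaks and in windows of the same width 5 kb to the left of the distal intergenic peaks. Points are shares and bars 95% Wilson intervals, and distal intergenic peaks sit at 6.20%, 47.4% and 41.2%.

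Matches clustered near the peak centres. Of 81 exact elements, 51.9% lay within 25 bp and 80.2% within 50 bp of the centre, and of the 793 sites of GTGGGTG 43.1% and 70.6%. Both sat to the left of the centre on the plus strand more often than to the right, with 59 exact elements on the left and 22 on the right (median offset -20.5 bp) and a median of -13.5 bp for GTGGGTG. For the exact elements of promoter peaks, within 2 kb of a TSS, the median offset was -16.5 bp.

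**Figure D3:**
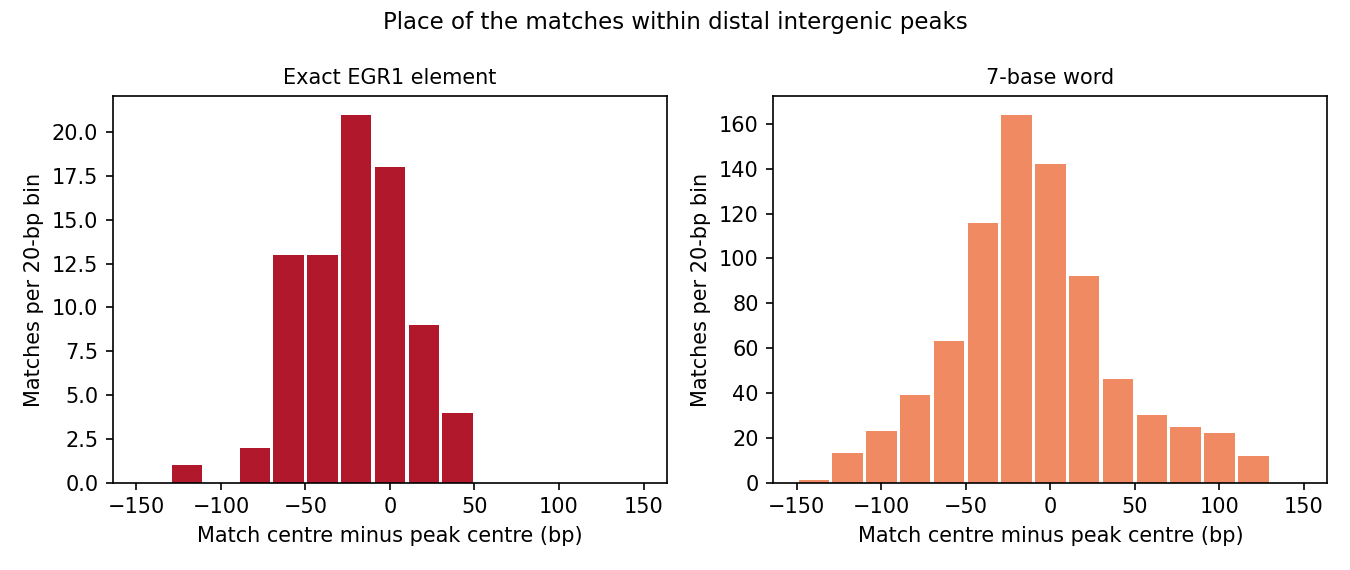
Number of matches per 20-bp bin (vertical axes) by the distance of the match centre from the peak centre on the plus strand (horizontal axes, bp), for 81 exact EGR1 elements on the left and 793 sites of the 7-base word on the right. Both histograms peak slightly to the left of 0.

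Most distal intergenic peaks were poor in CpG but richer than their surroundings. The CpG ratio, the number of CpGs observed over that expected from the C and G content, had a median of 0.297 in the peaks and 0.172 in the mean of their windows 5 kb away. The peak exceeded its windows in 898 cases, fell below them in 338 and equalled them in 5 (p = 5.71e-59, exact sign test, 2-sided). A ratio of at least 0.6 was found in 135 peaks (10.9%, 9.27 to 12.7%), against 50% of all peaks. The share was lower than in the other peaks (54.5%, odds ratio 0.102, adjusted p = 6.67e-208, Fisher's exact test) but higher than in deep intronic peaks (4.44%, odds ratio 2.63, interval 1.88 to 3.67; adjusted p = 9.24e-09, Fisher's exact test). Median GC content was 51.1%, close to the 51.6% of deep intronic peaks and below the 65.5% of peaks within 2 kb of a TSS. In the mean of the windows of the distal intergenic peaks it was 44.9%. Soft-masked repeats covered over 50% of the sequence in 3.63% of the peaks and in 24.1% of their left windows.

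**Figure D4:**
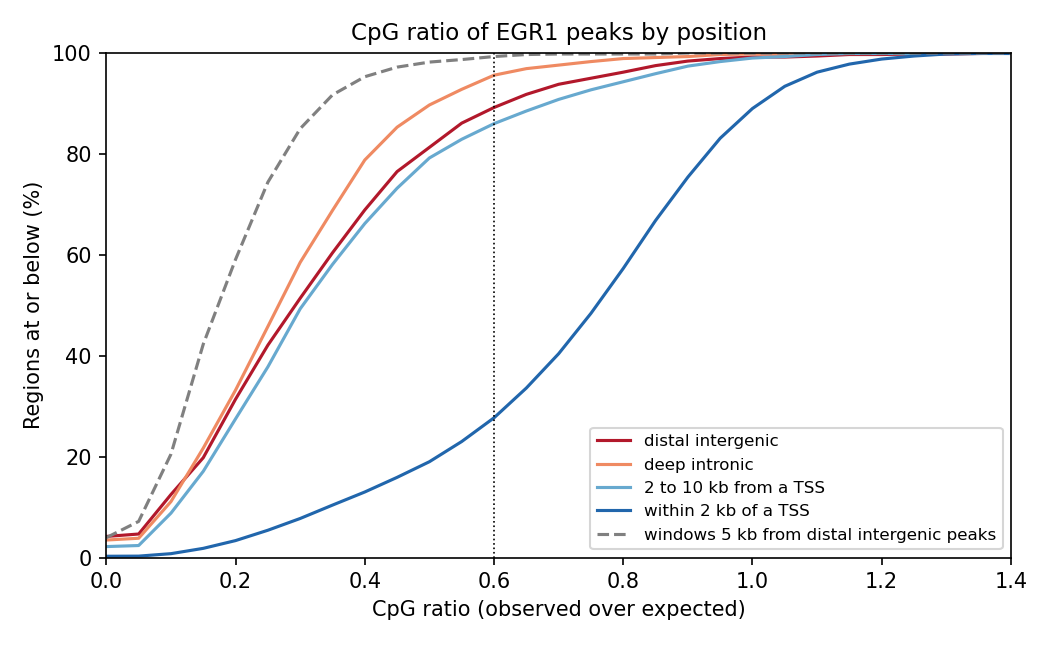
Cumulative share of regions (vertical axis, %) by CpG ratio (horizontal axis) for 4 classes of peaks (solid lines) and the windows 5 kb from distal intergenic peaks (dashed line), with the ratio of 0.6 as a dotted line. The distal intergenic curve lies near those for deep intronic peaks and peaks 2 to 10 kb from a TSS, with medians of 0.297, 0.265 and 0.303, and far from that of peaks within 2 kb, with a median of 0.761.

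The 135 CpG-rich peaks differed from the other 1106 in several respects, all given as descriptions. The exact element was in 20.0% of them (14.1 to 27.5%) and in 4.52% of the others (3.45 to 5.91%). GTGGGTG showed the opposite order, with 24.4% (18 to 32.3%) and 43.2% (40.3 to 46.2%). An IDR of at most 0.001 was found for 61.5% and 44.8%, and the binding word of SP/KLF factors for 18.5% and 3.8%. The exact element and the SP/KLF word themselves hold CpGs, and GTGGGTG holds none. A split by CpG ratio therefore favours these orders of the words in advance. A RefSeq transcript start lay within 2 kb of 26 of the CpG-rich peaks (19.3%, 13.5 to 26.7%) and of 68 of the others (6.15%, 4.88 to 7.72%). Removing every peak within 10 kb of such a start left 89 CpG-rich ones among 989, and the odds ratio against deep intronic peaks was then 2.17 (adjusted p = 0.000143, Fisher's exact test).

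IDRs ranged from 4.84e-09 to 0.0199 with a median of 0.00134, and 46.6% (43.8 to 49.4%) were at most 0.001, against 59.5% of all peaks. That was a smaller share than among the other peaks (61.0%, odds ratio 0.557, adjusted p = 1.41e-21, Fisher's exact test). Against deep intronic peaks, with 46.9%, the odds ratio was 0.987 (interval 0.840 to 1.16; adjusted p = 0.902, Fisher's exact test). Among the 311 distal intergenic peaks with the lowest IDRs, 10.9% (7.93 to 14.9%) held the exact element, and in the next 3 groups of 310 by rising IDR 5.16%, 4.19% and 4.52% did. The match with up to 1 change was in 62.4% of the first group and 39.0% of the last, while GTGGGTG was in 42.8%, 41.9%, 43.5% and 36.5% of the 4 groups in order. CpG-rich peaks were 19.0% of the first group and 7.42% of the last. The exact element, the match with up to 1 change and the CpG-rich share were highest in the first group, while GTGGGTG was not, and their separate parts were not tested.

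Words bound by other factor families were searched on both strands, each against the left window with Benjamini-Hochberg adjustment over 5 motifs. The SP/KLF word GGGGCGGGG was in 67 peaks (5.40%) and 5 left windows (adjusted p = 8.25e-15, exact McNemar test), against 16.9% of all peaks. It shares bases with the GC-rich form of the EGR1 element. The E-box CAGCTG, of a kind bound by basic helix-loop-helix factors such as those of neurons, was in 246 peaks (19.8%) and 140 left windows (adjusted p = 1.25e-08, exact McNemar test), against 16.4% of all peaks. The motif of CTCF, which folds chromatin into loops, was in 21 peaks (1.69%) and 2 left windows (adjusted p = 0.000110, exact McNemar test), against 1.13% of all peaks. The AP-1 word TGAGTCA, the site of Fos and Jun proteins, was in 103 peaks (8.30%) and 72 left windows (adjusted p = 0.0222, exact McNemar test), against 4.72% of all peaks. The CREB site TGACGTCA (CRE) was in 5 peaks (0.403%), near Nectin1, 1700008O03Rik, Bex3, Gm21962 and Plcg2, and 0 left windows (adjusted p = 0.0625, exact McNemar test), against 1.30% of all peaks. The AP-1 call was lost with a TSS limit of 20 kb, where 60 peaks and 44 left windows held the word (adjusted p = 0.133, exact McNemar test), and at an IDR of at most 0.001 (adjusted p = 0.0527, exact McNemar test). In the right windows the counts were 7 for SP/KLF, 133 for the E-box, 1 for CTCF, 53 for AP-1 and 2 for CRE. These tests compare peaks of 1 list with their surroundings. The windows were not matched for base composition. Their median GC content was 44.9% (mean of both sides), against 51.1% in the peaks, and its part in the counts of any word was not tested.

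None of these 5 words differed from deep intronic peaks past the adjusted threshold by Fisher's exact test. CTCF came nearest, with 1.69% against 0.696% (odds ratio 2.46, interval 1.08 to 5.56; raw p = 0.0379, adjusted p = 0.0885, Fisher's exact test). The E-box was in 22.6% of the deep intronic peaks (odds ratio 0.845, interval 0.695 to 1.03), AP-1 in 8.09% (1.03, 0.767 to 1.38), SP/KLF in 3.92% (1.4, 0.951 to 2.06) and CRE in 0.261% (1.55, 0.368 to 6.48). The adjusted p-values were 0.174, 0.902, 0.174 and 0.902 in that order.

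Another EGR1 peak lay within 10 kb of 202 distal intergenic peaks (16.3%), against 32.9% of all peaks and 15.5% of deep intronic peaks (odds ratio 1.06, interval 0.851 to 1.32; adjusted p = 0.861, Fisher's exact test). The position rule keeps this class over 10 kb from every TSS, whereas 63.6% of all peaks lay within 2 kb of one. It therefore favours a lower share than in all peaks in advance. The 31-bp word at the peak's middle occurred more than once in the genome for 25 peaks (2.01%), against 1.04% of all peaks. The share exceeded that of the other peaks (0.925%, odds ratio 2.2, adjusted p = 0.00278, Fisher's exact test), a call that was lost with a TSS limit of 20 kb (odds ratio 1.31, adjusted p = 0.592). Against deep intronic peaks (2.18%) the odds ratio was 0.924 (interval 0.528 to 1.62; adjusted p = 0.902, Fisher's exact test). The words with the most copies were in the peaks near Creb3l2 and Myc, with 2592 and 10786 copies, so that reads there could have come from other copies.

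Among the 10 distal intergenic peaks with the lowest IDRs were those nearest to Shc3, Rpl29, Ccne1, Nfatc2, Rtn4r, Fos, Zfp395, Snx10 and Calcoco1, listed by rising IDR. Nfatc2 is a transcription factor regulated by calcium, Rtn4r is a receptor for the myelin protein Nogo, Ccne1 is cyclin E1, Rpl29 is a protein of the large ribosomal subunit and Snx10 a sorting nexin. These IDRs ran from 4.84e-09 to 4.45e-08. The peak 11 kb upstream of Rpl29, at chr9:106418262-106418575, held 2 exact elements, and the peaks near Ccne1, Fos, Zfp395 and Calcoco1 held 1 each, while those near Shc3, Nfatc2, Rtn4r and Snx10 held none. CpG ratios in these 9 peaks ran from 0.486 near Rtn4r to 0.980 near Calcoco1. The Ccne1 peak, 14.3 kb downstream, had 40 CpGs in 388 bp, and the Rtn4r peak 8 CpGs in 173 bp.

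The 1241 peaks had 974 nearest protein-coding genes (4.45% of 21911), of which 780 had 1 peak, 146 had 2 and 48 had 3 or more. An EGR1 peak within 2 kb of their own TSS was present for 421 of the 974 (43.2%), against 29.6% of all protein-coding genes. The most peaks were near Diras2, a small GTPase of the Ras superfamily, and Mroh5, with 7 each, and Adgrb1, an adhesion receptor found at synapses, with 6. Camk2n1, an inhibitor of the kinase CaMKII, Cstad, the potassium channel gene Kcnj2 and Rasgrp1, an activator of Ras, had 5 each. Arap3, Arhgef10l and Arid1b, the last a subunit of a chromatin remodelling complex, were listed next with 4 each, a number that other genes shared.

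Counted by the interval between protein-coding genes, 900 intervals held a distal intergenic peak, and 12 held 5 or more. The interval between Gm6569 and Adgrb1 on chromosome 15, of 676 kb, held 13 peaks, those nearest to Mroh5 and those nearest to Adgrb1. Their IDRs ran from 3.15e-07, 187 kb upstream of Adgrb1, to 0.0194. The interval of 656 kb between Gadd45g and Diras2 on chromosome 13 held 8. The interval between Camk2n1 and Vwa5b1 on chromosome 4 was far shorter, at 105 kb, and held 7 peaks or 6.65 per 100 kb. Of these, the 5 nearest to Camk2n1 were 14.9, 25.5, 34.8, 41.6 and 50.7 kb downstream of its TSS, with IDRs of 4.91e-05, 2.62e-07, 0.0159, 0.00222 and 0.00228. None of the 5 held the exact element, and 2 held GTGGGTG. Between Tex44 and Ptma on chromosome 1, 98.7 kb held 6 peaks, 3 of them within 1.23 kb. The desert of 1705 kb between Kcnj2 and Sox9, a transcription factor of astrocytes, held 7 peaks, or 0.410 per 100 kb. The groups of 4 peaks at most 10 kb apart were the ones near Rasgrp1, over 15.5 kb, and near Camk2n1, over 25.4 kb. The peaks near Rasgrp1 had few CpGs, with ratios from 0 to 0.257.

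**Figure D5:**
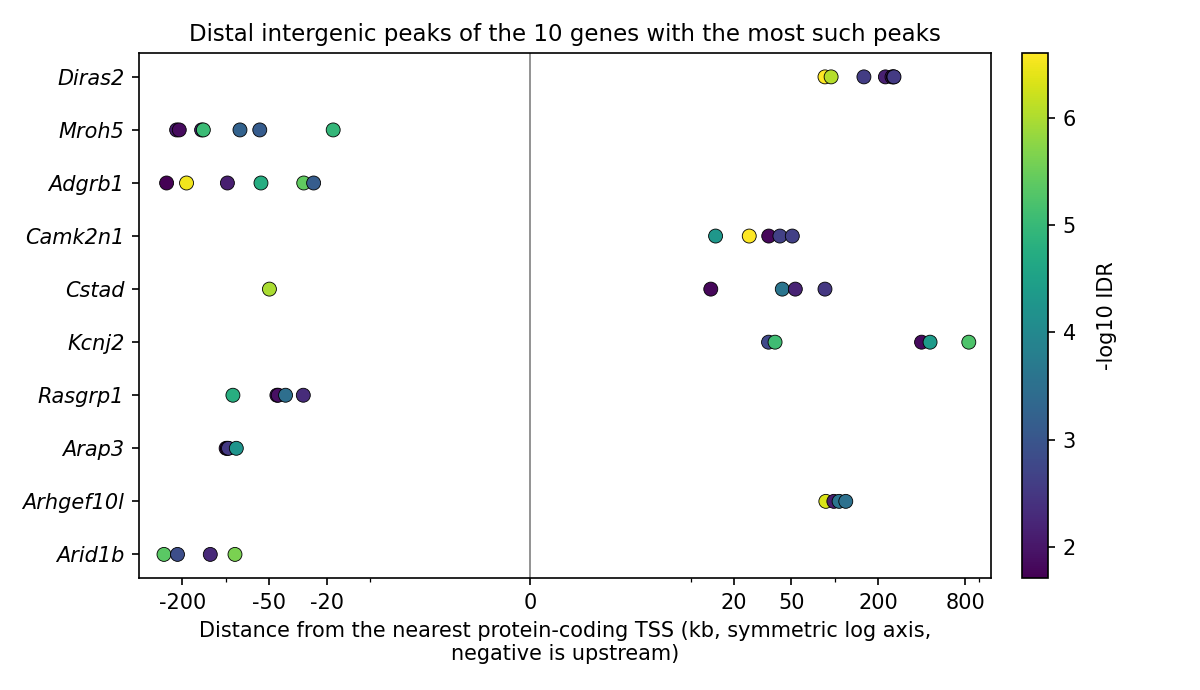
Distance of each distal intergenic peak from the nearest protein-coding TSS (horizontal axis, kb on a symmetric log scale, upstream negative) for the 10 genes with the most such peaks (rows), coloured by -log10 of the IDR. Peaks of Mroh5, Adgrb1, Rasgrp1, Arap3 and Arid1b were all upstream, those of Cstad on both sides and the rest downstream.

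The peaks farthest from any TSS lay between genes of chromosomes 8 and 1, 461 and 374 kb away in the desert beyond Cdh11, a cadherin, and 381 kb away near Brinp3. The Brinp3 peak had an IDR of 1.64e-05 and the pair near Cdh11 0.0108 and 0.0157. None held the exact element, and each held GTGGGTG. Of the 11 peaks over 200 kb from a TSS, 10 held that word (Wilson interval 62.3 to 98.4%), and the exception was near Tenm4. The share was 40.9% at 10 to 20 kb, 38.0% at 20 to 50 kb and 44.3% at 50 to 100 kb. At 100 to 200 kb it was 48.5%, and in all distal intergenic peaks 41.2%. Since the word was chosen on sequences that include these, no test was made.

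Nearest genes were counted for lists of cortical genes, beside the 4.45% of all protein-coding genes. Of 49 activity-regulated genes found in the annotation, 12 (24.5%) were nearest to a distal intergenic peak, with 15 peaks in all, and 6 were with a TSS limit of 20 kb. They were Btg2, Dusp5, Dusp6, Egr1, Egr2, Fos, Gadd45g, Inhba, Nptx2, Penk, Rheb and Sik1. Egr1 itself had a pair of distal peaks on chromosome 18, 23.4 and 26.3 kb downstream of its TSS, with IDRs of 5.37e-06 and 0.000235 and no exact element. The peak 22.1 kb upstream of Sik1, a kinase induced by activity, had an IDR of 1.08e-07, and that 102 kb downstream of Nptx2, which encodes a neuronal pentraxin, 5.44e-07 with 1 CpG. The Inhba peak, 162 kb upstream of this activin subunit gene, held the exact element at an IDR of 7.76e-05. The third Fos peak, 18.5 kb upstream, had an IDR of 0.000796. Dusp6 and Egr2 had a peak each at 19.5 and 23.0 kb, with IDRs of 0.00271 and 0.000806. A peak within 2 kb of a TSS was present for 36 of the 49 genes (73.5%), beside 29.6% of all protein-coding genes.

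Genes of cortical projection neurons and layers were nearest for 9 of 29 (31%), among them Emx1, a homeobox gene of the forebrain, with a peak 13.7 kb downstream at an IDR of 4.10e-06. Zbtb18, a repressor needed in cortical development, had a peak at 99.8 kb with an IDR of 9.37e-06. Bcl11b, a factor of deep-layer neurons, had a pair of peaks 112 and 115 kb downstream, 1 of which held the exact element. Of the interneuron genes, 7 of 25 (28.0%) were nearest, including Dlx2, a homeobox gene of interneuron precursors, with peaks 81.0 and 82.8 kb upstream at IDRs of 1.09e-06 and 6.82e-05, and Maf, at 177 kb with 2.64e-07. For glutamate and GABA receptor genes the count was 8 of 36 (22.2%), and the peak 38.2 kb upstream of Grin2a, an NMDA receptor subunit gene, had the lowest IDR apart from those of Grm7 (0.000193 against 7.49e-05). Of the lists for other cells, 1 of 20 oligodendrocyte genes (Bcas1) and 1 of 20 astrocyte genes (Sox9) were nearest, 5.00% each. A partial list of ribosomal protein genes gave 2 of 35 (Rpl14 and Rps24, 5.71%). Rpl29, nearest to a distal intergenic peak with an IDR of 7.10e-09, was not on that list. The lists were compiled with earlier results of these data known, and genes differ in how much intergenic sequence surrounds them, the part of which was not tested. In bulk cortex, the cell type in which a site is bound cannot be told apart.

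The RefSeq annotation of functional elements overlapped 12 distal intergenic peaks (0.967%), against 0.461% of all peaks and 12 of the deep intronic ones (1.04%). Each of those in distal intergenic peaks was an enhancer of the VISTA collection, in which DNA is tested in transgenic mouse embryos. Forebrain was among the tissues given for 7 of them, among them those near Pias1, Xkr6, Cryba4, Rab12, Btg2 and Adra1a. Each of the 7 was given with further tissues. The share with forebrain over all elements of the collection, or in other peak classes, was not counted. The peak 71.5 kb upstream of Pias1, which encodes a SUMO ligase, lies in enhancer mm1509 and had an IDR of 6.16e-06. The peak of Btg2 lies 18 kb downstream in mm1445 (IDR 0.00107). The upstream peak of Fos lies in mm260, for which heart was the tissue given. The peak with the lowest IDR in such an element was near Ly86 (2.28e-07, mm979), given as active in the hindbrain and in ganglia. None of the 12 held the exact EGR1 element, which was in only 6.20% of all distal intergenic peaks.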

How the data were processed

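After trimming by read quality, the authors aligned the reads to mm10 using Bowtie (Bowtie2 2.2.9 and bedtools 2.26.0 in the submitters' processing notes), called peaks with SPP and kept those reproducible between duplicate experiments. The deposited values are peak positions, read here as in BED files and printed from 1, and an IDR per peak, read like a q-value, with a maximum of 0.02. No reads or signal were used, so depth is unknown. The position rule, motif searches, CpG ratios, windows and copies of the 31-bp middle word were computed on GRCm38.p6 with GENCODE M21, and RefSeq was used for further transcript starts and functional elements. The motif of CTCF was searched as a degenerate pattern. Shares have 95% Wilson intervals, densities exact Poisson intervals. Classes were compared by Fisher's exact test, peaks with windows by exact McNemar and sign tests, all 2-sided, and they compare peaks of 1 list, not replicates. Adjusted p-values under 0.05 were called. The named genes are those nearest to the 10 peaks of lowest IDR, the 10 with the most peaks (ties by symbol), those of the 3 peaks farthest from a TSS, and members of the lists. Other genes were named after their values were seen. The class, gene lists and alternatives were chosen with earlier results of these data known. A few genes that the rule names are not reported here. Cyr61 and Ctgf were not found in the annotation under these symbols. Scripts, tested on simulated data, used Python 3.11.15, numpy 2.4.6, pandas 2.3.3, scipy 1.17.1, statsmodels 0.14.6, numba 0.67.0 and matplotlib 3.10.9.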

Additional observations from a re-analysis of the deposited data

Results flagged for a closer look

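Peaks on unplaced or unlocalized scaffolds, which the position rule leaves out, numbered 76 in the deposited list. They were listed because they are EGR1 peaks in data that no comparison used. The list has no control sample to set beside them.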

How the results depend on the processing

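The list is 1 merged set of peaks with no read counts, so no replicate could be left out, depth is unknown, and intervals and p-values cover variation among peaks only. No paired analysis was possible because the peak list is the only file and holds no replicate values. For 25 results, 168 values were recomputed under alternatives, of which 10 were chosen after seeing the data. Direction and call (for counts and shares, the value within its limit) held in 140. The number of distal intergenic peaks was 750 with a TSS limit of 20 kb and 578 with an IDR of at most 0.001. It stayed within 1.5 times elsewhere, from 989 with RefSeq starts added to 1849 with protein-coding TSSs only. The share with the EGR1 element was 8.65% at an IDR of at most 0.001, 2.58% for GCGTGGGCG alone, 3.63% for GCGGGGGCG alone and 47.4% with 1 change. GTGGGTG was in 31.9% when masked matches were left out. Activity-regulated genes nearest to a peak numbered 6 with a limit of 20 kb and 7 at an IDR of at most 0.001. The call for a repeated middle word against other peaks was lost with a limit of 20 kb (odds ratio 1.31). AP-1 against the windows lost its call with that limit (ratio of discordant peaks 1.38) and at an IDR of at most 0.001 (1.63). With a limit of 5 kb, CTCF (odds ratio 2.19) and SP/KLF (1.64) passed the threshold against deep intronic peaks. The other changes turned odds ratios against deep intronic peaks that were not called either way. For the EGR1 element the ratio became 0.961 with a limit of 20 kb, 0.955 for GCGTGGGCG alone and 0.991 with 1 change. For an IDR of at most 0.001 it became 1.04 with a limit of 5 kb. For a repeated word it became 1.15 with that limit, 1.00 at an IDR of at most 0.001 and 1.34 with a 51-bp word. For another peak nearby it became 0.980 with a limit of 5 kb, 0.968 and 0.769 at IDRs of at most 0.01 and 0.001, and 0.877 within 20 kb. For CRE it became 0.886 with a limit of 20 kb and 0.932 at an IDR of at most 0.001, and for SP/KLF 0.95 with a limit of 20 kb. Fewer peaks enter under the stricter limits, and the cause was not tested otherwise.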
